A study of Mus musculus with 8 samples.

Results

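The genes described here work in the endoplasmic reticulum (ER): the chaperones and disulfide enzymes of its lumen, the sensors of the unfolded protein response, and the machinery of ER-associated degradation. They were taken from a list of 33 gene names, out of 49584 features counted. All 33 were found and all 33 passed the filter on low counts, which 17891 features passed in all. RNA came from crude mitochondria of 4 knockout hearts, labelled L/L, cre and Tefm -/-, and of 4 control hearts, labelled L/L and Tefm +/+. In both groups 1 exon of Tefm, which encodes an elongation factor of the mitochondrial RNA polymerase, is taken to carry loxP sites; the titles give L/L for all 8 mice. In the knockouts, per the labels' protocols, the exon was removed by cre driven from the muscle creatine kinase promoter, which is active in cardiac and skeletal muscle cells. Each library was from a separate mouse, and the labels give no ages.

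The ER lumen is where secreted and membrane proteins fold, helped by the Hsp70 protein BiP (Hspa5), its J-domain cofactors, the lectins calnexin and calreticulin, and protein disulfide isomerases. When unfolded proteins build up, IRE1 (Ern1), ATF6 and PERK (Eif2ak3) signal to the nucleus: IRE1 splices the mRNA of Xbp1, ATF6 is cut to release a transcription factor, and PERK slows translation and favours that of ATF4. Classical targets of this response are the luminal chaperones themselves and the proteins that draw misfolded clients back to the cytosol for the proteasome. In heart muscle, ATF6 and XBP1 are known as stress-responsive regulators of this programme, and a specialised part of the same membrane system, the sarcoplasmic reticulum, stores calcium.

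The libraries held 21108165 to 25393933 counts in knockouts and 26268804 to 27403415 in controls, of which nuclear genes gave 10331611 to 13204546 in knockouts and 6825329 to 7596951 in controls. Features of mitochondrial DNA took 38.7% to 59.3% of knockout counts, where knockout 1 was highest and stood apart, and 72.3% to 74.0% of control counts. Tefm itself was counted 166, 233, 230 and 245 times in knockouts 1 to 4 and 110, 117, 106 and 144 times in controls 1 to 4, and did not pass the test (log2 fold change 0.14 ± 0.11 SE, adjusted p = 0.324 in edgeR's quasi-likelihood test); gene counts do not separate the deleted exon. Levels below are CPM, counts scaled to a common library size after TMM. Cardiomyocyte markers were lower in knockouts, with 6 of 7 genes fallen and a summed level of 36630 to 46740 CPM in knockouts and 58040 to 61840 in controls. Fibroblast markers summed to 253 to 486 CPM in knockouts and 251 to 262 in controls, with 4 of 8 risen, among them Postn by 2.92 on the log2 scale. Of the other marker lists, 1 of 6 endothelial genes rose and 2 fell, 1 of 6 smooth muscle and pericyte genes fell, and 3 of 7 macrophage and leukocyte genes fell. Beside these counts, 26.1% of all features tested rose and 23.9% fell, at an adjusted p under 0.05 in the same test. Of 6 B and plasma cell genes 2 could be tested, Ighm, which fell, and Sdc1, which rose. No marker was at 0 in every library, and the part of any shift of these markers in the results below was not tested. In such bulk RNA, fewer cells of a type and less RNA per cell cannot be told apart, nor can the level of an mRNA in the heart and the share of it that stays with the mitochondria during isolation.

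The 33 genes did not move as a block. Of them, 15 rose, 8 fell and 10 did not pass at an adjusted p under 0.05 in edgeR's quasi-likelihood test, while over all features tested 26.1% rose and 23.9% fell. Their median log2 fold change was 0.08, beside -0.01 over all features. A rise of at least 2-fold was found for 3 of them, Ero1l, Ern1 and Atf6, and for 7.32% of all features; none of the 33 fell by as much. All 4 knockout libraries were above all 4 control libraries in 13 of these genes, against 23.9% of all features, and below them in 6, against 21.5%. The 15 genes that rose lay between 0.24 and 1.96 on the log2 scale and the 8 that fell between -0.66 and -0.29. Without control 4 the count of falls was 5, with Dnajc3, Manf and Pdia6 no longer passing. Without knockout 1, the library highest in mitochondrial counts, 15 rose and 7 fell. All changes are relative to the bulk of features. Scaled to library totals alone, the median of all features moved up by 0.99. With that scaling 30 of these genes rose and none fell, beside 14066 rises and 480 falls among all 17891 features. By the authors' deposited table, 15 of these genes were higher and 7 lower at an adjusted p under 0.05, all 33 with the sign found here; the gene it leaves out is Pdia6, with an adjusted p of 0.0709 there.

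**Figure D1:**
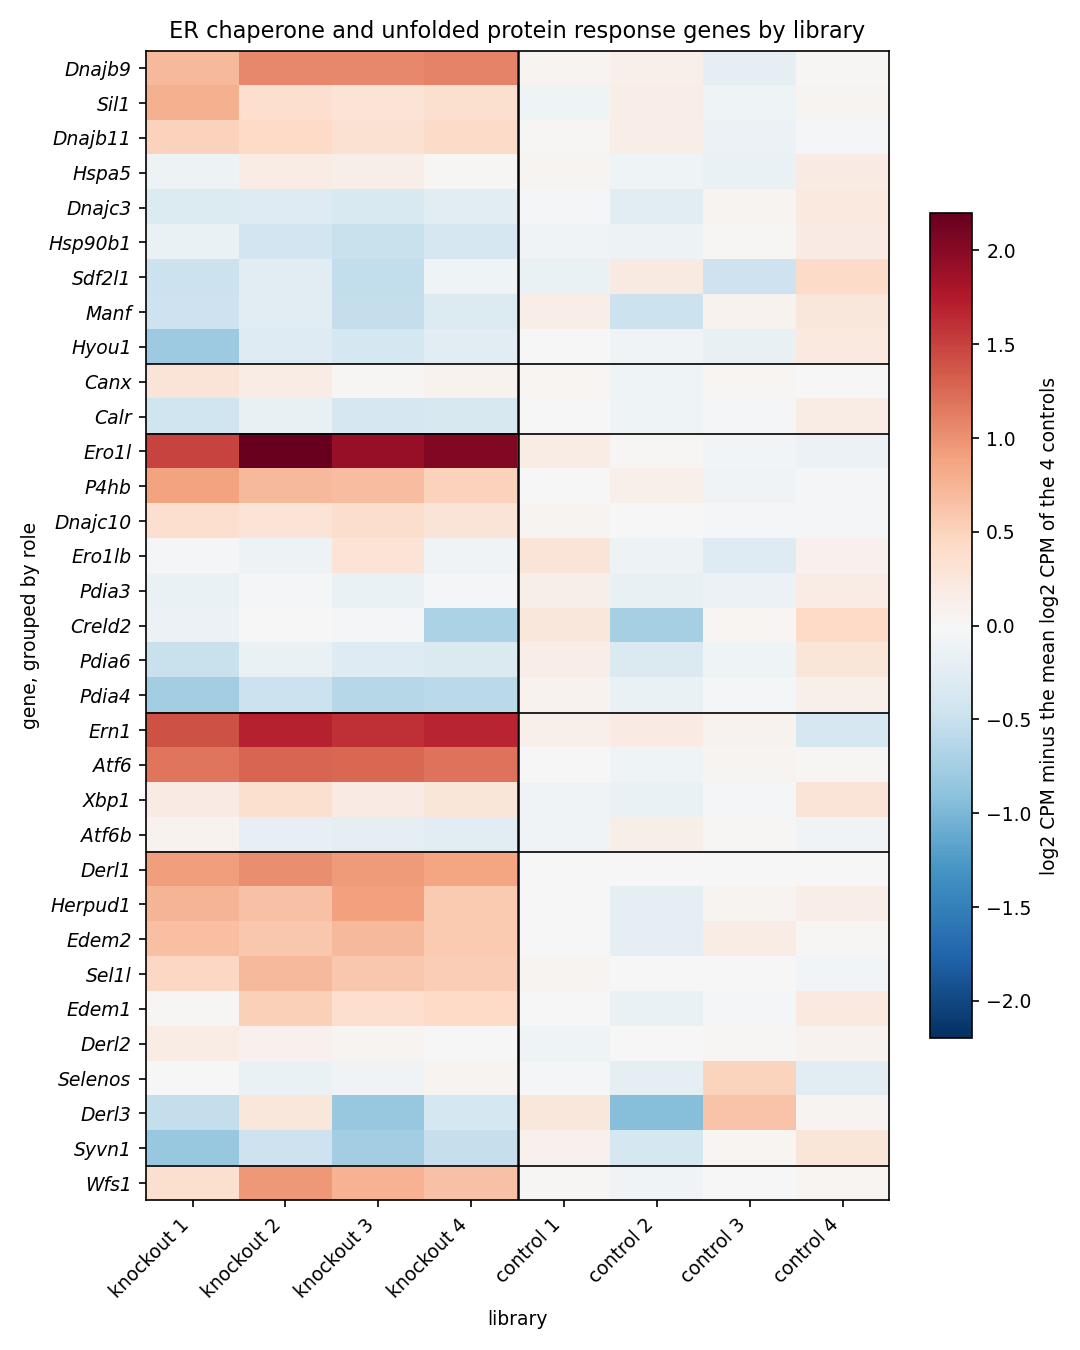
Level of each of the 33 genes in each library (columns, 4 knockouts left of 4 controls), as log2 CPM minus the mean of the 4 controls; rows are grouped by role, and red is higher than the control mean, blue lower. Ero1l, Ern1 and Atf6 are the darkest red rows in all 4 knockouts, while Pdia4 and Syvn1 are blue there, relative to the bulk of features.

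Of the sensor and transcription factor genes Atf6, Ern1 and Xbp1 rose, the first pair by more than 2-fold. Atf6 encodes the membrane-bound transcription factor that is cleaved under ER stress, and its gene lies on chromosome 1 at 170704674 to 170867771, minus strand, in GRCm38. Its level was 221, 238, 235 and 223 CPM in knockouts 1 to 4, against 98.9, 91.4, 102.5 and 99.2 CPM in controls 1 to 4. Every knockout was more than 2-fold above every control. The log2 fold change was 1.22 ± 0.07 (SE, adjusted p = 9.8e-09). Ern1 encodes IRE1, the kinase and endonuclease that splices Xbp1 mRNA (chromosome 11, 106394650 to 106487852, minus strand). It had 25.9, 31.6, 29.7 and 31.1 CPM in knockouts and 10.5, 11.0, 10.2 and 7.48 CPM in controls, without overlap, a log2 fold change of 1.60 ± 0.11 (adjusted p = 5.96e-08).

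Xbp1, whose spliced mRNA encodes the transcription factor of the IRE1 branch, had 38.3, 43.1, 38.1 and 40.4 CPM in knockouts and 31.8, 30.3, 32.5 and 40.9 CPM in controls. Control 4 lay inside the knockout range, so the groups overlapped, and the log2 fold change of 0.24 ± 0.09 passed narrowly (adjusted p = 0.0454). It did not pass in DESeq2 (adjusted p = 0.0596), nor when knockout 2, 3 or 4 or control 1, 2 or 3 was left out (adjusted p between 0.0533 and 0.144). Gene counts do not separate spliced from unspliced Xbp1. Atf6b, the paralogue of Atf6, had 3.08 ± 0.324 CPM in knockouts and 3.39 ± 0.246 in controls (SD, n = 4 each) and did not pass; the 95% interval of its log2 fold change ran from -0.43 to 0.15. Within each library the log2 ratio of Atf6b to Atf6 counts was -6.21 ± 0.178 in knockouts and -4.84 ± 0.159 in controls, lower in all 4 knockouts than in any control. The difference of -1.37 had a two-sided exact permutation p of 0.0286, the smallest that 70 relabelings allow, and 0.0429 after adjustment over the 6 gene ratios examined.

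**Figure D2:**
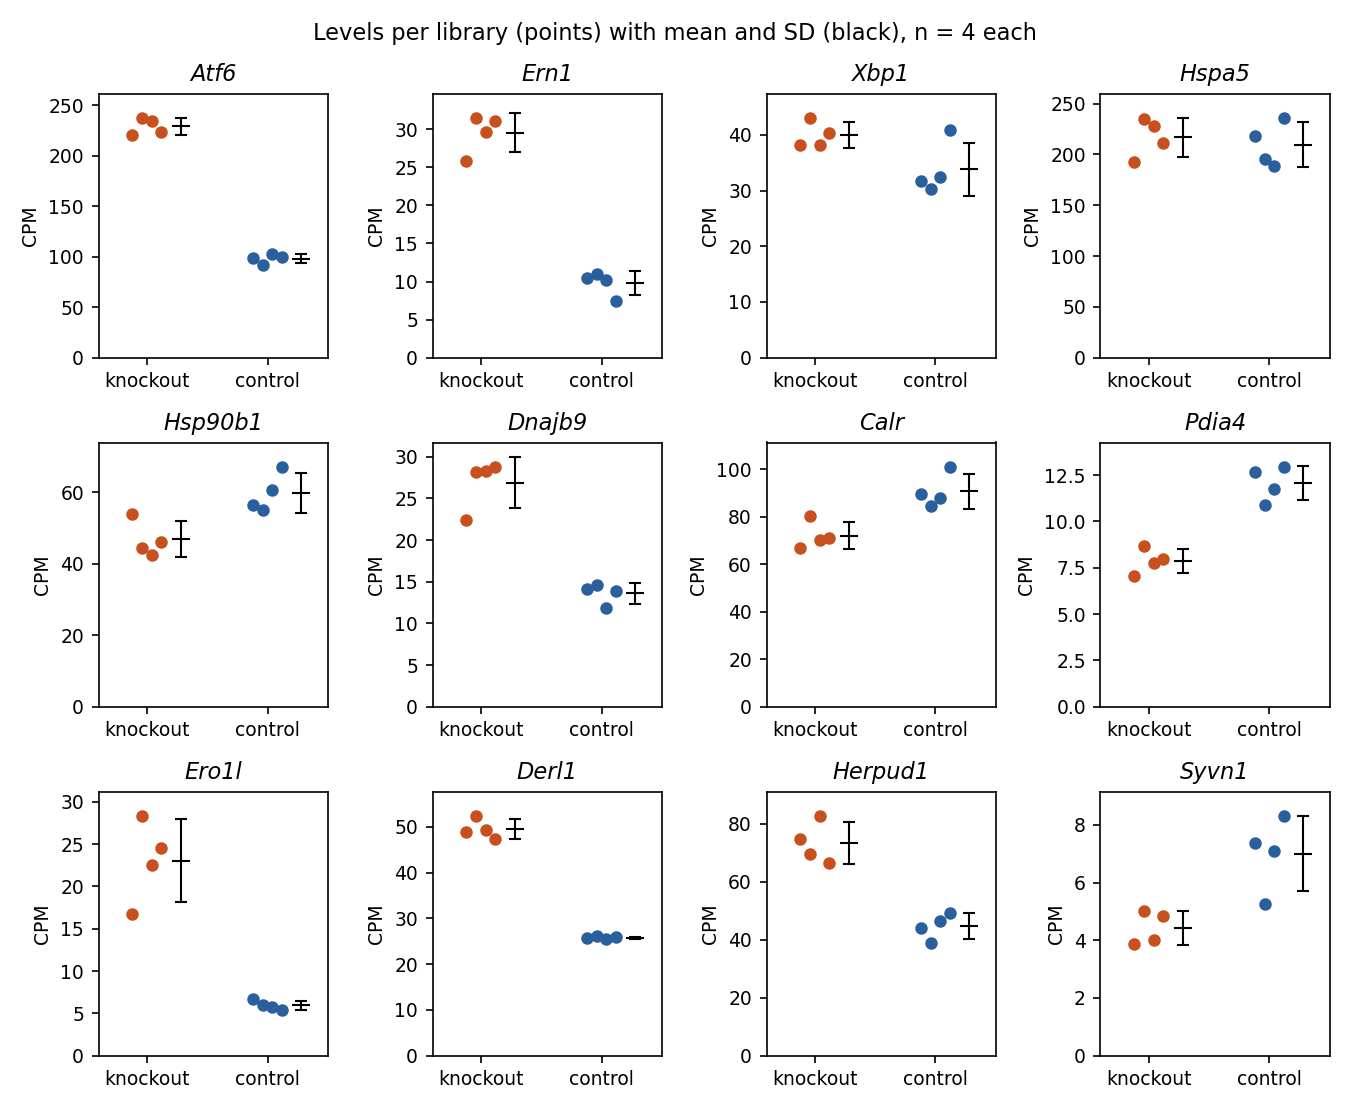
Levels of 12 of the genes in CPM (linear axis from 0), 1 point per library, knockouts left of controls, with the mean and SD in black. Atf6, Ern1, Ero1l, Dnajb9, Derl1 and Herpud1 are separated upward in the knockouts, Hspa5 and Xbp1 overlap, and Hsp90b1, Calr, Pdia4 and Syvn1 are separated downward relative to the bulk of features.

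BiP itself, the Hsp70 of the ER lumen and the usual read-out of the response, did not change detectably relative to the bulk of features. Hspa5 (chromosome 2, 34771970 to 34777547, plus strand) had 193, 235, 227.5 and 212 CPM in knockouts 1 to 4, against 218, 196, 188.5 and 236 CPM in controls 1 to 4. The groups covered the same range, the log2 fold change was 0.05 ± 0.09 (adjusted p = 0.697), and its 95% interval from -0.15 to 0.25 leaves out a change of 2-fold in either direction relative to the bulk of features. Scaled to library totals alone, which moved the median of all features by 0.99, its log2 fold change was 1.06 (adjusted p = 1.37e-06). Per kilobase of exon Hspa5 was the most abundant of the 33 mRNAs in both groups, at 51.2 CPM per kb in knockouts and 49.6 in controls. The mitochondrial Hsp70, Hspa9, gave a different picture in the same libraries: it averaged 386 CPM in knockouts and 171 in controls. The log2 ratio of Hspa5 to Hspa9 counts was -0.83 ± 0.209 in knockouts and 0.29 ± 0.124 in controls, so that Hspa5 was the lower of the pair in every knockout and the higher in every control (difference -1.13, exact permutation p = 0.0286, adjusted over 6 ratios 0.0429).

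Other luminal chaperones and BiP cofactors went both ways: of the 9 genes of this role 3 rose, 4 fell relative to the bulk of features, and 2 did not pass. Over all features 26.1% rose and 23.9% fell. Hsp90b1 encodes GRP94, the Hsp90 of the ER. It had 54.0, 44.5, 42.5 and 46.2 CPM in knockouts and 56.3, 55.0, 60.5 and 67.2 CPM in controls, a log2 fold change of -0.35 ± 0.09 (adjusted p = 0.00483). Knockout 1 came within 1 CPM of the lowest control, and the groups did not overlap. Up to 10.3% of its exon bases lie under 1810014B01Rik on the other strand, and the labels do not say whether counting used strand. Hyou1, an Hsp110-like nucleotide exchange factor of BiP, averaged 20.9 ± 3.43 CPM in knockouts and 28.1 ± 3.26 in controls, all 4 knockouts below all controls (adjusted p = 0.00825). The other exchange factor, Sil1, went the opposite way, with 6.65, 4.98, 4.76 and 4.92 CPM in knockouts and 3.58, 4.24, 3.60 and 3.99 CPM in controls. All 4 knockouts were above all controls, knockout 1 well above the rest (log2 fold change 0.46 ± 0.14, adjusted p = 0.0129).

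The J-domain proteins, which hand clients to BiP and trigger its ATPase, were split as well. Dnajb9, known as ERdj4 and as a brake on IRE1, rose 1.98-fold, with 22.4, 28.2, 28.3 and 28.8 CPM in knockouts and 14.1, 14.6, 11.8 and 13.9 CPM in controls. Every knockout was above every control, knockout 1 being the lowest of the 4 (log2 fold change 0.99 ± 0.10, adjusted p = 1.7e-06). Dnajb11 (ERdj3) averaged 15.8 ± 0.836 CPM in knockouts and 11.7 ± 0.920 in controls and rose by 0.43 on the log2 scale (adjusted p = 0.000733). Dnajc3, the p58IPK protein that also restrains PERK, was at 22.9 to 24.58 CPM in knockouts and 24.63 to 33.5 in controls and fell by 0.29 on the log2 scale (adjusted p = 0.013). Manf, a small secreted protein that binds BiP, averaged 8.50 ± 0.814 CPM in knockouts and 11.2 ± 2.30 in controls and fell by 0.40 (adjusted p = 0.0254), although control 2 lay inside the knockout range and the call was lost without knockout 3 or without control 1, 3 or 4 (adjusted p between 0.0601 and 0.0925). The call of Dnajc3 was lost without control 4 (adjusted p = 0.0515). Sdf2l1, a subunit of a BiP cofactor complex, had 1.58 ± 0.235 CPM in knockouts and 2.06 ± 0.553 in controls and did not pass (adjusted p = 0.148).

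The lectin chaperones hold glycoproteins whose sugars carry a single terminal glucose. Calreticulin (Calr), the soluble one, had 66.9, 80.4, 70.1 and 70.9 CPM in knockouts and 89.6, 84.4, 87.8 and 101 CPM in controls. All knockouts were below all controls relative to the bulk of features, and the log2 fold change was -0.33 ± 0.08 (adjusted p = 0.00375). A processed pseudogene, Calr-ps, was counted 4201 times over the 8 libraries against 16136 for Calr and fell too, relative to the bulk of features (-0.39 ± 0.07, adjusted p = 0.000642). How reads were divided between the copies is uncertain. Calnexin (Canx), the membrane-bound lectin, had 117 ± 9.39 CPM in knockouts and 106 ± 4.98 in controls and did not pass (adjusted p = 0.151). The log2 ratio of Calr to Canx was -0.70 ± 0.173 in knockouts and -0.23 ± 0.105 in controls, lower in every knockout, with a difference of -0.47 (exact permutation p = 0.0286, adjusted over 6 ratios 0.0429).

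Among the 8 disulfide enzymes 3 rose, 2 fell relative to the bulk of features, and 3 did not pass, near the 26.1% and 23.9% of all features. The steepest change of the 33 genes lay here. Ero1l encodes the oxidase that reloads protein disulfide isomerase with disulfides (chromosome 14, 45283087 to 45318771, minus strand). It had 16.75, 28.4, 22.6 and 24.55 CPM in knockouts, against 6.64, 6.03, 5.70 and 5.38 CPM in controls. The lowest knockout was more than 2-fold above the highest control, and the fitted fold was 3.89 (log2 fold change 1.96 ± 0.15, adjusted p = 1.02e-07). Ero1lb, which encodes the other oxidase of this function, had 2.15 ± 0.305 CPM in knockouts and 2.12 ± 0.377 in controls and did not pass (adjusted p = 0.941, 95% interval -0.37 to 0.40). The log2 ratio of Ero1lb to Ero1l counts was -3.40 ± 0.407 in knockouts and -1.49 ± 0.219 in controls, a difference of -1.91 (exact permutation p = 0.0286, adjusted over 6 ratios 0.0429). Per kilobase, Ero1l ranked 15 of the 33 in knockouts and 29 in controls.

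P4hb, the classical protein disulfide isomerase and substrate of these oxidases, had 130, 116, 113 and 100.5 CPM in knockouts and 69.98, 76.1, 66.7 and 69.5 CPM in controls. The groups were well apart (log2 fold change 0.70 ± 0.09, adjusted p = 1.14e-05). Pdia4 (ERp72), a multidomain relative, went the other way with 7.07, 8.68, 7.76 and 7.97 CPM in knockouts and 12.7, 10.9, 11.7 and 13.0 CPM in controls. No knockout reached the lowest control, and the log2 fold change was -0.61 ± 0.10 (adjusted p = 0.000114). Dnajc10 (ERdj5), a reductase that opens disulfides before degradation, was at 13.9 to 15.0 CPM in knockouts and 11.1 to 11.9 in controls and rose by 0.34 on the log2 scale (adjusted p = 0.00193). Pdia6, a relative that also binds IRE1, averaged 13.0 ± 1.28 CPM in knockouts and 16.2 ± 2.88 in controls and fell by 0.32 (adjusted p = 0.0379), with overlapping groups. It did not pass with the replicate number as a block (adjusted p = 0.0612) or without knockout 1, 3 or 4 or control 1 or 4 (adjusted p between 0.0521 and 0.139). Pdia3 (ERp57), the partner of the lectins, had 13.0 ± 0.491 CPM in knockouts and 13.9 ± 1.64 in controls, and did not pass (adjusted p = 0.379). Creld2, a luminal protein with isomerase activity, had 1.87 ± 0.398 CPM in knockouts and 2.25 ± 0.724 in controls and did not pass either (adjusted p = 0.391, 95% interval -0.79 to 0.26).

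**Figure D3:**
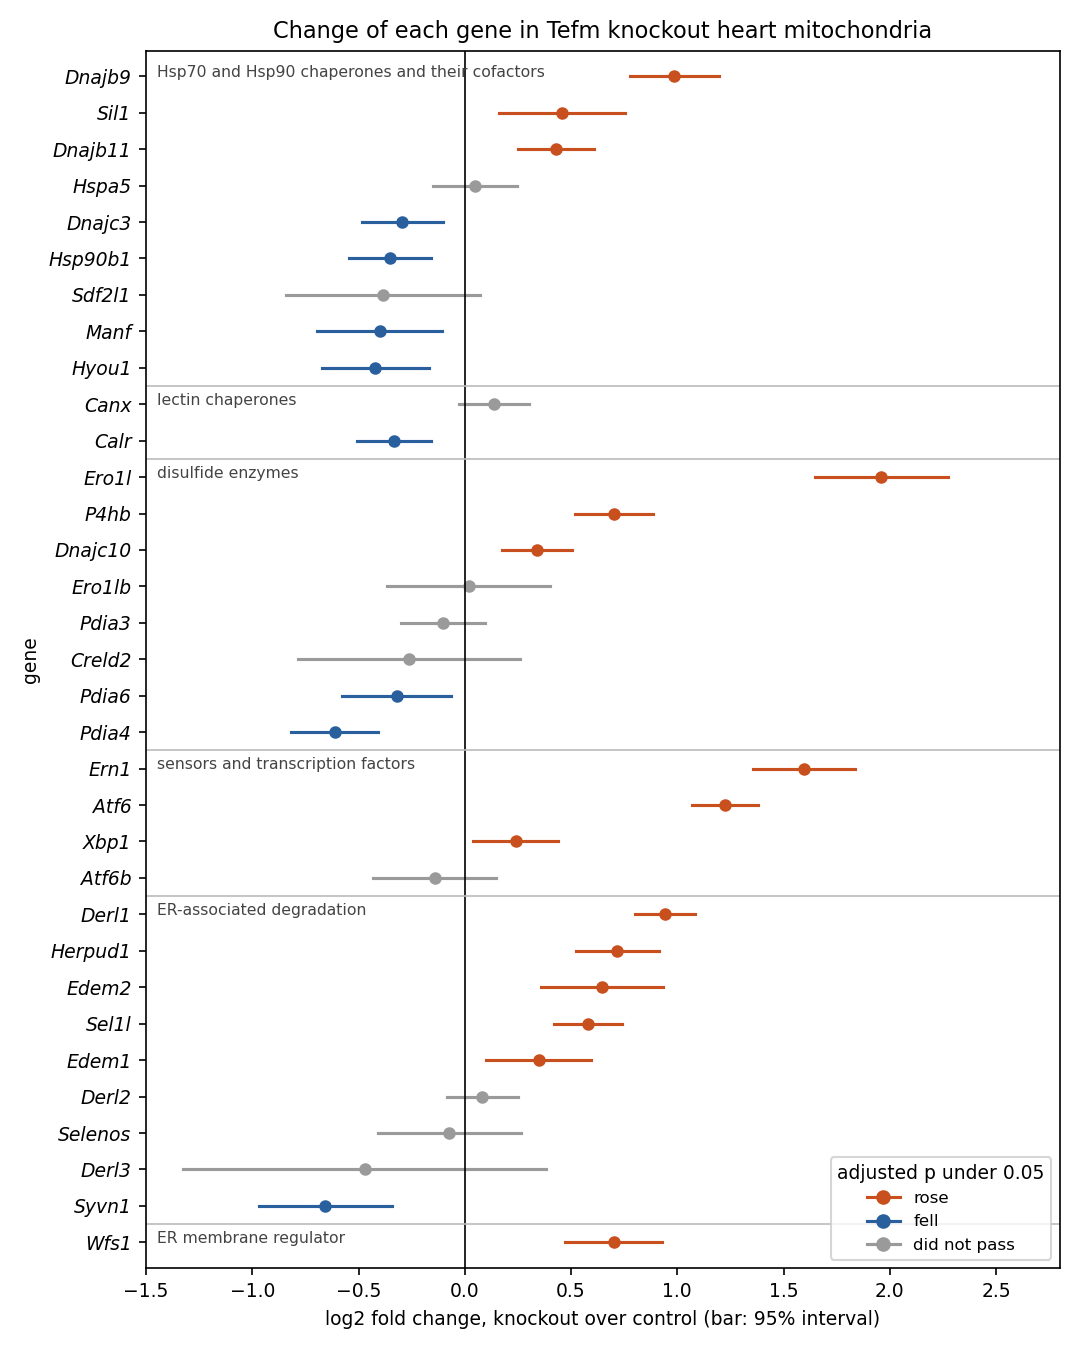
Log2 fold change of each of the 33 genes, knockout over control, on the x axis, with its 95% interval from edgeR's fit; orange genes rose, blue genes fell relative to the bulk of features and grey genes did not pass. Within the chaperone and disulfide roles orange and blue stand side by side, while in ER-associated degradation 5 genes are orange and Syvn1 is blue.

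In ER-associated degradation 5 of the 9 genes rose, 1 fell and 3 did not pass, beside 26.1% rises and 23.9% falls over all features. Derl1, a channel protein for clients leaving the ER, had 48.9, 52.5, 49.4 and 47.3 CPM in knockouts and 25.6, 26.0, 25.6 and 25.9 CPM in controls. The controls were nearly equal and all knockouts were far above them (fold 1.92, log2 fold change 0.94 ± 0.07, adjusted p = 5.81e-08). Of its paralogues, Derl2 had 13.8 ± 0.647 CPM in knockouts and 13.0 ± 0.695 in controls (95% interval of the log2 fold change -0.09 to 0.25). Derl3 was the scarcest of the 33 per kilobase in both groups, at 0.366 ± 0.150 CPM in knockouts and 0.516 ± 0.235 in controls, and its interval of -1.33 to 0.38 leaves a fall of 2-fold possible. Neither passed, and the log2 ratio of Derl3 to Derl2 differed by -0.54 (exact permutation p = 0.314, adjusted over 6 ratios 0.314).

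The core ligase complex was divided. Syvn1, the ubiquitin ligase Hrd1, had 3.86, 5.01, 4.01 and 4.85 CPM in knockouts and 7.38, 5.24, 7.08 and 8.32 CPM in controls. All knockouts were below all controls, control 2 being close to them, and it fell relative to the bulk of features (log2 fold change -0.66 ± 0.15, adjusted p = 0.00186). Its adaptor Sel1l had 57.5, 69.4, 63.6 and 61.4 CPM in knockouts and 43.7, 42.2, 42.4 and 40.3 CPM in controls and rose by 0.58 (adjusted p = 1.8e-05). Herpud1, which organises the complex, had 74.98, 69.5, 82.9 and 66.4 CPM in knockouts and 44.0, 38.8, 46.5 and 49.4 CPM in controls and rose by 0.72 (adjusted p = 1.83e-05). Neither Sel1l nor Herpud1 overlapped between the groups. Edem1 and Edem2, which trim mannose from clients, rose by 0.35 and 0.64 (adjusted p = 0.0214 and 0.00115). Edem1 averaged 12.2 ± 1.70 CPM in knockouts and 9.61 ± 1.03 in controls, the groups overlapped, and its call was lost without knockout 2 or 4 or control 1, 2 or 3 (adjusted p between 0.0517 and 0.0698); Edem2 was at 3.75 to 4.16 CPM in knockouts and 2.15 to 2.82 in controls. The ratio of Edem1 to Edem2 differed by -0.30 on the log2 scale, which did not pass (exact permutation p = 0.114, adjusted over 6 ratios 0.137). Selenos, a selenoprotein that recruits the p97 ATPase, had 4.34 ± 0.273 CPM in knockouts and 4.57 ± 1.18 in controls (adjusted p = 0.728).

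Wfs1 encodes wolframin, an ER membrane protein known to restrain ATF6. It had 57.7, 88.1, 77.1 and 71.2 CPM in knockouts and 46.2, 42.9, 45.6 and 46.4 CPM in controls. All knockouts were above all controls, with knockout 1 nearest to them, and the log2 fold change was 0.70 ± 0.11 (adjusted p = 8.9e-05).

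**Figure D4:**
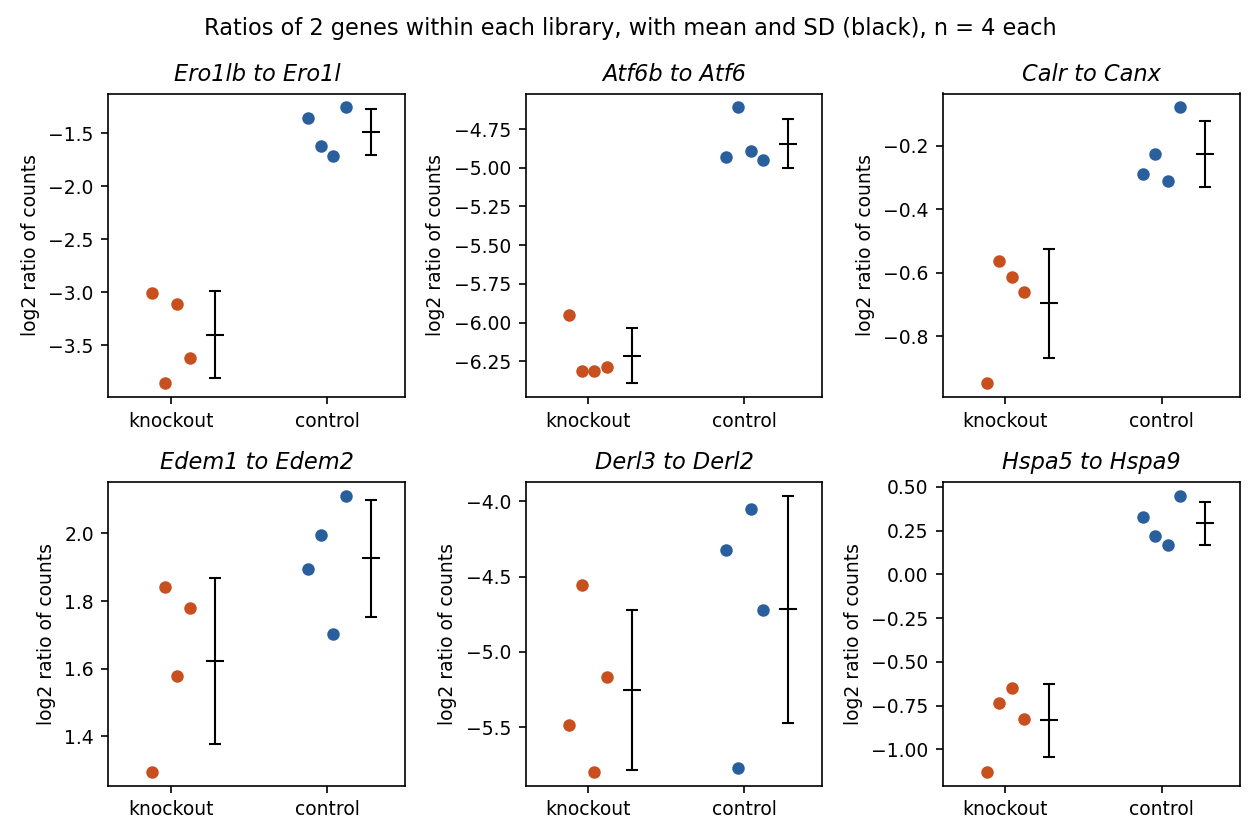
Log2 ratio of the counts of 2 genes within each library (1 point per library, knockouts left of controls, mean and SD in black, axes not starting at 0). The groups are apart for Ero1lb to Ero1l, Atf6b to Atf6, Calr to Canx and Hspa5 to Hspa9, and overlap for Edem1 to Edem2 and Derl3 to Derl2.

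The promoters of these genes were searched for known elements. The classical ER stress element is bound by ATF6 together with NF-Y, and was searched as the letters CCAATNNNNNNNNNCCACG on both strands in RefSeq promoter windows (GRCm38.p6) of 250 bases before to 50 bases after each start. Windows were found for 28 of the 33 genes, Ero1l and Ero1lb under other names, and not for Hyou1, Sil1, Manf, Atf6 and Derl1. The element was in 37 of 27025 genes, or 0.137%, and in 10 of the 28: Hspa5, Hsp90b1, Dnajc3, Calr, Canx, Pdia6, Creld2, Ero1lb, Syvn1 and Derl3. Of these 10 genes none rose, 5 fell relative to the bulk of features and 5 did not pass in edgeR's test, with a median log2 fold change of -0.31. Without control 4 the falls were 3, with Dnajc3 and Pdia6 no longer passing (adjusted p = 0.0515 and 0.139). Scaled to library totals 8 of the 10 rose and none fell, beside 14066 rises and 480 falls among all 17891 features. Of the other 18 genes with a window 12 rose, 1 fell (Pdia4) and 5 did not pass, with a median of 0.39; over all features 26.1% rose and 23.9% fell. No test was made of this difference, which was looked for with the fold changes known, and a match of letters is not a binding site. Among the 27 genes outside the list that carry the element, 7 could be tested, of which none rose and 3 fell.

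Windows of 5 genes are shown to set the element beside their changes, written in the direction of the gene with the element in capitals; where the gene has it on the opposite strand the capitals read as its reverse complement. Hsp90b1 carries it at 2 places, of which the one farther from the start is given. The coordinates are chr2:34772020-34772048 (plus strand) for Hspa5, chr10:86705613-86705681 (minus) for Hsp90b1, chr8:84847050-84847118 (minus) for Calr, chr11:50325775-50325843 (minus) for Canx and chr19:6046507-6046575 (plus) for Syvn1.
Hspa5: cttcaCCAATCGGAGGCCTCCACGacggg
Hsp90b1: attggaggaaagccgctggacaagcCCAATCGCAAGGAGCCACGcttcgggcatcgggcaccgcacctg
Calr: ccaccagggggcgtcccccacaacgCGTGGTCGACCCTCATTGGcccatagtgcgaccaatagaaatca
Canx: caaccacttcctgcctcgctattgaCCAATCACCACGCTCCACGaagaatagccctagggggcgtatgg
Syvn1: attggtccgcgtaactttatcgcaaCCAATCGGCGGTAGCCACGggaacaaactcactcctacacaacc
Hsp90b1, Calr and Syvn1 fell, while Hspa5 and Canx did not pass. In the 10 genes the first base of the element lay between 212 and 44 bases before the RefSeq start (-212 to -44). The gene span of Hspa5 given above, from the GENCODE annotation, begins at 34771970, so the Hspa5 window lies inside that span.

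A shorter form, the ER stress element II (ATTGGNCCACG, both strands), was in 12 of the 27025 genes, or 0.0444%, and in Dnajb11 and Herpud1, which both rose. Among the 10 genes outside the list that carry this form, 6 could be tested, of which 3 rose and none fell. Over all features 26.1% rose and 23.9% fell. The shorter form is shown in capitals for Dnajb11 at chr16:22857843-22857871 and for Herpud1 at chr8:94386352-94386412, both on the plus strand.
Dnajb11: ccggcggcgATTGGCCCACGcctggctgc
Herpud1: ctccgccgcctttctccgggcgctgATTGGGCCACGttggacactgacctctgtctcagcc
The letters TGACGTGG, the unfolded protein response element bound by XBP1, were in 193 genes (0.714%) and in none of the 28. Of these 193 genes 113 could be tested, of which 33 rose and 17 fell. The composite element of C/EBP and ATF factors, searched as TGATGNAA and known from ATF4 targets, was in 1219 genes (4.51%) and among the 28 in Herpud1, where it lies on the opposite strand at chr8:94386292-94386349. Among the 1218 genes outside the list that carry the composite element, 291 could be tested, of which 90 rose and 83 fell. The composite window of Herpud1, with the reverse complement in capitals, is shown because Herpud1 is the gene that holds 2 of the 4 searched elements.
Herpud1 composite: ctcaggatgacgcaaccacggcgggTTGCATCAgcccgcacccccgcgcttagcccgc
No match of 1 element overlapped a match of another in these windows.

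The list of PERK, the third sensor, and of shared stress factors showed changes of larger size, although the gene of PERK itself did not pass. Of the 12 genes of this list 10 rose and none fell in edgeR's test, with a median log2 fold change of 2.51, beside 26.1% rises and 23.9% falls over all features. Medians and changes of the lists that follow are log2 fold changes of the same fit. Atf4 averaged 216 CPM in knockouts and 34.2 in controls (log2 fold change 2.66 ± 0.10, adjusted p = 2.53e-10). Trib3, a pseudokinase target of ATF4, averaged 62.1 CPM in knockouts and 0.937 in controls and rose by 6.05, Chac1, which degrades glutathione, by 4.55 and Nupr1, a stress-induced chromatin protein, by 2.99. Eif2ak3, the PERK kinase itself, and Ddit4 did not pass (0.20 ± 0.11, adjusted p = 0.135, and 0.22 ± 0.16, adjusted p = 0.281); both are named after their values were seen. ATF4 is also translated under other eIF2 kinases, and these counts do not separate the kinases.

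A list of 10 genes held those that cut or ligate the sensor products, the ER-bound CREB3 factors, Ern2 and Tmbim6. Of these, 8 could be tested, 6 rose, Tmbim6 among them, and none fell, with a median of 0.45. Over all features 26.1% rose and 23.9% fell. Mbtps2, the site-2 protease that releases ATF6, rose by 0.65, Rtcb, the ligase that joins the exons of spliced Xbp1, by 0.53, Creb3 by 0.62 and Creb3l2 by 0.38 (adjusted p between 6.25e-05 and 0.00132). The 31 further genes of ER-associated degradation showed 18 rises and 3 falls, with a median of 0.40, beside the same shares of all features. Nploc4 and Ubxn4, cofactors of p97, rose by 0.98 and 0.94. Svip, a small inhibitor of this pathway, fell by 1.63. The ligases Rnf5 and March6 fell by 0.42 and 0.39 relative to the bulk of features, Rnf5 without a call in DESeq2 (adjusted p = 0.0517) or with no filter on low counts (adjusted p = 0.103). Rnf5 also lost the call with the replicate number as a block (adjusted p = 0.0554). The same held without knockout 3 or control 1, 3 or 4 (adjusted p between 0.0539 and 0.0903).

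Translocation and N-glycosylation, which bring proteins into the ER and add their sugars, held 16 rises and 2 falls in 34 genes, with a median of 0.24. Rises made up 26.1% and falls 23.9% of all features. Stt3b, a catalytic subunit of the oligosaccharyltransferase, rose by 0.66, Sec61a1, the translocon channel, by 0.55, Ssr4 of the translocon-associated complex by 0.48 and Spcs3 of the signal peptidase by 0.44, while Rpn1 and Magt1, both of the oligosaccharyltransferase, fell by 0.36 and 0.19 relative to the bulk of features. Magt1 had no call in DESeq2 (adjusted p = 0.0562) or with no filter on low counts (adjusted p = 0.249). Its call was also lost with the replicate number as a block (adjusted p = 0.0503). The same held without knockout 2, 3 or 4 or control 1, 3 or 4 (adjusted p between 0.0525 and 0.140). Of the 38 other folding enzymes 11 rose and 11 fell, with a median of -0.03, which is also close to the 26.1% and 23.9% of all features. Qsox1, a sulfhydryl oxidase, rose by 1.66 while Qsox2 fell by 1.46; the isomerase relatives Txndc5 and Erp29 rose by 0.70 and 0.47. Serpinh1, the collagen chaperone, and Erp44, which retains Ero1 in the ER, fell by 0.71 and 0.52 relative to the bulk of features. Of the 3 collagen genes among the fibroblast markers Col1a1 and Col1a2 rose by 1.17 and 1.16, and Col3a1 did not pass (0.67 ± 0.30, adjusted p = 0.0798). In knockout 1 Col1a1 and Col1a2 lay inside the control range and Col3a1, at 26.4 CPM, below every control. The part of fibroblast RNA in these values was not tested.

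Of 27 membrane and contact-site proteins of the ER 8 rose and 7 fell, with a median of 0.06, which is close to the 26.1% and 23.9% of all features. Rtn4, a reticulon of tubular ER, averaged 243 CPM in knockouts and 39.98 in controls and rose by 2.60, and Vapa, a tether at contact sites, rose by 0.88. Reep5, another tubule-shaping protein, fell by 1.16, the calcium release channel Itpr1 by 0.88 and the calcium sensor Stim1 by 0.66, relative to the bulk of features. Of the 10 listed proteins of the sarcoplasmic reticulum 9 could be tested, 6 fell and none rose, with a median of -0.60. Over all features 23.9% fell and 26.1% rose. Hrc fell by 2.77, the ryanodine receptor Ryr2 by 1.76, phospholamban (Pln) by 1.58 and the calcium pump Atp2a2 by 1.55. This list moved with the cardiomyocyte markers given above, whose part in it was not tested.

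Chaperones of other compartments give a frame for the luminal ones. The 8 mitochondrial genes listed include the proteases Lonp1 and Clpp. Of the 8, 6 rose and none fell, with a median of 0.65, beside 26.1% rises and 23.9% falls over all features. Lonp1, a protease, rose by 2.19, Hspa9 by 1.18, Hspe1 by 0.95 and Grpel1 by 0.73. Of 13 cytosolic heat shock genes 6 rose and 3 fell, with a median of 0.12, beside the same shares of all features. Hspb1 rose by 1.41, Hsp90aa1 by 1.22, Dnaja2 by 0.77 and Hspa4 by 0.72. Hspa1a, Hsph1 and Dnaja1 fell by 1.09, 0.69 and 0.66 relative to the bulk of features. Over all 9 lists together 81 of 180 tested genes rose (45%) and 32 fell (17.8%), beside 26.1% and 23.9% of all features. The lists were chosen with earlier results of these data known, so these shares are a description and were not tested.

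**Figure D5:**
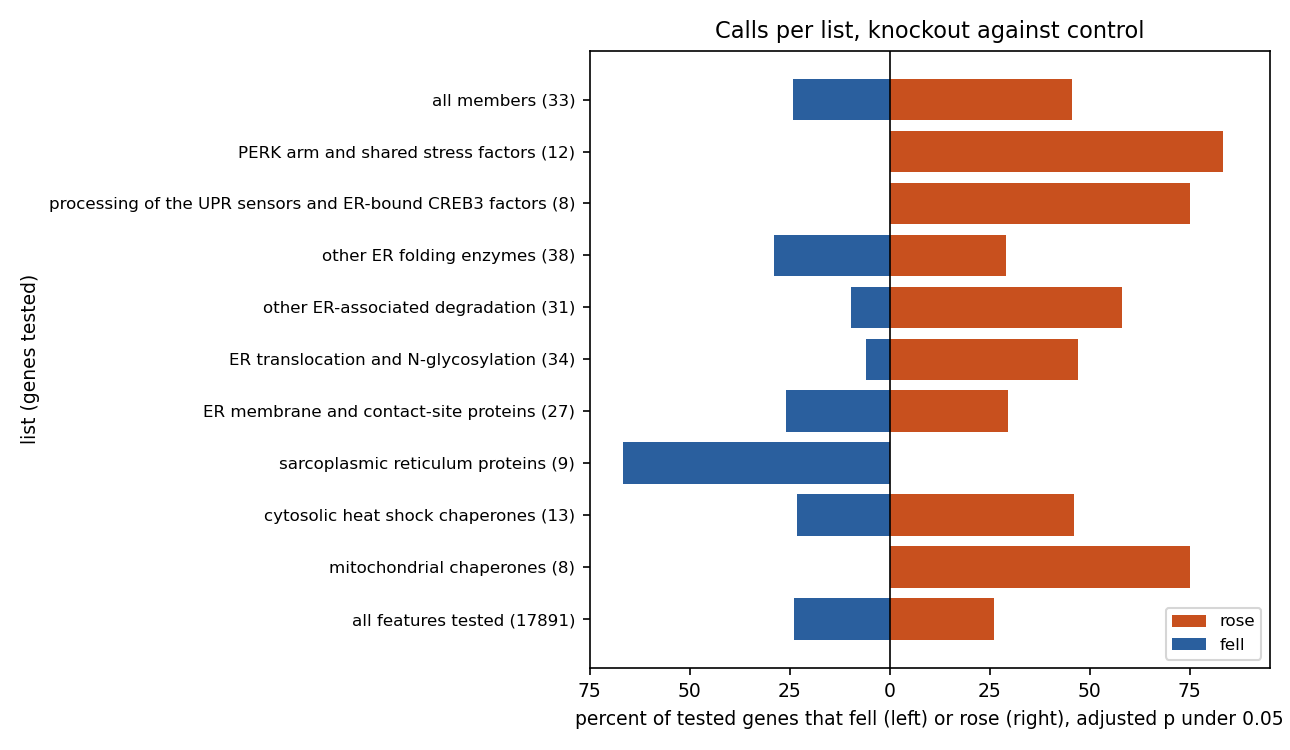
Percent of tested genes of each list that rose (right, orange) or fell (left, blue) in knockouts against controls at an adjusted p under 0.05, relative to the bulk of features; the number tested is in brackets. The bar of the 33 genes shows 15 rises and 8 falls, the list of PERK and shared stress factors 10 rises of 12, and the lowest bar all 17891 features.

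The genes that rose or fell were called on these same libraries, so their values in single libraries are a description. The 15 genes that rose had a median deviation from the control mean of 0.57 to 0.72 on the log2 scale in single knockout libraries and of -0.03 to 0.02 in controls. The 8 that fell had medians of -0.47 to -0.28 in knockouts and -0.18 to 0.22 in controls, control 2 being the lowest control. By level per kilobase Hspa5 was first in both groups, and the next 4 were the same genes in another order, P4hb, Herpud1, Calr and Canx in knockouts and Calr, P4hb, Canx and Herpud1 in controls. Calr and Canx, at 25.02 and 24.88 CPM per kb, were close in knockouts. The gene Ern1 ranked 17 in knockouts and 28 in controls, and with Ero1l made the widest moves in rank.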

How the data were processed

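The authors deposited whole-number counts per gene for 8 libraries, a p-value with its adjustment per gene, and log2 fold changes in a table of their own comparison, which was used for the comparison of calls alone. Per the submitters' processing notes, which give no role or order, the tools were featureCounts, bedtools, Bowtie2, DESeq2 1.14.1, SAMtools 1.3.1 and R 3.3.2, with mm10. Per the labels' protocols, RNA was extracted with a miRNeasy kit, prepared with an Illumina TruSeq kit and sequenced paired-end on a MiSeq. Strand use and rRNA removal are not stated there.

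Counts were tested with edgeR 4.0.16 in R 4.3.3 (quasi-likelihood F test, TMM factors of 1.03 to 1.61 in knockouts and 0.689 to 0.733 in controls, filterByExpr with a minimum count of 10, all 8 libraries, no covariate), with Benjamini-Hochberg adjustment over 17891 features; 18277 of 49584 features had no count. The SE was obtained by dividing the log2 fold change by the square root of F, and intervals are at 95%. The biological coefficient of variation was 11.3%. Depth was 21108165 to 27403415 counts per library. Ratios of 2 genes used counts plus 0.5 and two-sided exact permutation tests. Levels per kilobase used the merged exons of the GENCODE annotation of GRCm38. The edgeR step was tested on simulated data, in which a small part of the genes changed, in random directions, with the same dispersion for every gene. That check does not cover the scaling between groups whose shares of mitochondrial counts differ. Replicates differed by more than counting noise (chi-square per degree of freedom 7.82 to 125 in knockouts and 2.42 to 3.70 in controls), so no library was a duplicate. Alternatives were DESeq2 1.42.0, RLE factors, library totals, no filter, nuclear genes alone, the replicate number as a block, a pseudocount of 5 for ratios and leaving out each library. The genes and the 9 further lists, as well as the motifs, were chosen with earlier results of these data known. From each list the text names up to 4 called genes with the smallest p and up to 3 called genes against the majority of the list; 1 gene that this rule names is not reported here. Figures were drawn with matplotlib 3.10.9.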

Additional observations from a re-analysis of the deposited data

Results flagged for a closer look

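Values were compared within each group of 4 libraries for 78 groups, and a value was taken as standing apart when its gap to the nearest other library, divided by the range, was above Dixon's 95% limit for 4 values, which chance passes in about 1 in 20 groups. All 3 such values were in knockout 1, the knockout library with the highest share of mitochondrial counts (59.3%). Sil1 had 6.653 CPM there, above the other knockouts; without that library its log2 fold change was 0.34 (adjusted p = 0.0315). Dnajb9 had 22.37 CPM there, below the other knockouts, and without it the log2 fold change was 1.06 (adjusted p = 4.61e-09). The log2 ratio of Atf6b to Atf6 was -5.95 there, above the other knockouts, and the difference between the groups without it was -1.459 (exact permutation p = 0.0286).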

How the results depend on the processing

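Of the 23 genes of the list that were called, 18 kept the call under every setting other than library totals, and 5 lost it under at least 1 of them (Dnajc3, Manf, Pdia6, Xbp1 and Edem1). Leaving out 1 library gave 13 to 15 rises and 5 to 8 falls in the list, and in the 9 further lists 74 to 84 rises and 28 to 35 falls. DESeq2 gave 14 rises and 8 falls, and RLE factors, no filter and nuclear genes alone 15 and 8 each. Scaling to library totals moved the median of all features by 0.99 and the share of calls that were rises to 96.7%, against 52.2% with TMM. The list then had 30 rises and 0 falls (edgeR, adjusted p under 0.05), and the further lists 164 rises and 6 falls. Over all 17891 features this setting gave 14066 rises and 480 falls. With it the log2 fold change turned to 0.62 for Hsp90b1, 0.60 for Hyou1, 0.70 for Dnajc3, 0.60 for Sdf2l1, 0.60 for Manf, 0.67 for Calr, 0.89 for Pdia3, 0.39 for Pdia4, 0.69 for Pdia6, 0.72 for Creld2, 0.83 for Atf6b, 0.34 for Syvn1 and 0.92 for Selenos, and among the other genes to 0.32 for Serpinh1, 0.47 for Erp44, 0.57 for Rnf5, 0.60 for March6, 0.64 for Rpn1, 0.80 for Magt1, 0.13 for Itpr1, 0.32 for Stim1, 0.31 for Hsph1 and 0.32 for Dnaja1. It also brought past the threshold Hspa5 (1.06), Canx (1.12), Ero1lb (1.01) and Derl2 (1.07). Reep5 (-0.16, adjusted p = 0.358) and Hspa1a (-0.10, adjusted p = 0.78) kept their sign and lost their calls in edgeR's test. By its construction this setting lets the share of mitochondrial counts move every nuclear gene. The replicate numbers do not pair the libraries: same-numbered libraries correlated at -0.01 to 0.05 in their deviations, and 1 of 4 knockouts correlated best with its own number. With the replicate block 15 genes of the list rose and 7 fell, and the ratios kept their differences, with a smallest p of 0.125 for 4 pairs. A pseudocount of 5 changed no call among the ratios. Derl3, at under 1 CPM, is limited by depth.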
